A study of Mus musculus with 19 samples.

Results

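The nuclear genes for the subunits of oxidative phosphorylation were followed as mouse embryonic stem cells became epiblast-like cells. Members were chosen by symbol: protein-coding genes beginning with Nduf (assembly factors named Ndufaf left out), Uqcr, Atp5 or Cox followed by 4 to 8, together with Sdha, Sdhb, Sdhc, Sdhd and Cyc1. This gave 87 of the 54119 genes in the table, of which 38 belong to complex I, 4 to complex II, 9 to complex III, 18 to complex IV and 18 to complex V. A filter on low values (at least 1 TPM, a transcript's share of the library scaled for its length, in at least 3 libraries) was passed by 82 members among the 14972 genes tested. The other 5 were Cox4i2, Cox6a2, Cox8b and Cox8c, which are tissue-restricted isoforms, and a second gene model named Atp5o. Complexes follow the symbol, so Ndufa4, now regarded as a subunit of complex IV, is counted with complex I, and Atp5s, a coupling factor outside the core enzyme, with complex V.

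Oxidative phosphorylation is carried out in the inner mitochondrial membrane. Complexes I (NADH dehydrogenase), II (succinate dehydrogenase), III (cytochrome bc1) and IV (cytochrome c oxidase) pass electrons to oxygen, complexes I, III and IV pump protons, and complex V (ATP synthase) uses the proton gradient to make ATP. Most subunits are encoded in the nucleus and imported, and mitochondrial DNA encodes a few catalytic ones. Naive embryonic stem cells are known to respire actively, and cells of the primed state to depend more on glycolysis.

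RNA was sequenced in 19 libraries of 6 groups. Wild-type XX cells of the LF2 line, wild-type XY cells of the E14 line, and LF2 cells with a Tet3-/- genotype, which targets a methylcytosine dioxygenase, were each measured as embryonic stem cells (mESC) and as epiblast-like cells (EpiLC). The mESC were kept in N2B27 with LIF and inhibitors of GSK3 and MEK1/2, and EpiLC were derived from them over 5 days with FGF5 and Activin A and no LIF. Tet3-/- mESC gave 4 libraries and each other group 3. All XX libraries are LF2 and all XY libraries E14, so sex and line cannot be told apart. The labels number the Tet3-/- libraries as mutants, 1 to 4 in mESC and 1, 3 and 4 in EpiLC, without saying whether these are separate clones. They do not say whether libraries of a group came from separate cultures, so p-values measure the spread between these libraries, which may be technical.

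Values are TPM summed over the transcripts of a gene and scaled between libraries by the median of ratios (scaled TPM), a level per transcript length that can be compared between genes. Differences are log2 fold changes of scaled TPM plus 1, with standard errors (SE), and understate the change of low genes. A gene was called higher or lower when limma's p-value, adjusted over all 14972 genes by the Benjamini-Hochberg method, was under 0.05. The depth behind a TPM value is unknown.

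The summed level of 7 naive markers averaged 523 to 593 scaled TPM in the mESC groups and 42.9 to 88.2 in the EpiLC groups. Single naive markers differed between the EpiLC groups. In XX, XY and Tet3-/- EpiLC Esrrb averaged 13.2, 0.451 and 3.71, Tfcp2l1 10.5, 0.778 and 3.56, and Zfp42 18.2, 4.3 and 7.72. Klf4, Tbx3 and Nr0b1 were also higher in XX than in XY EpiLC, and Nanog alone was lower (41.7 and 48.6). The part of this in the XX and XY comparisons was not tested. The 5 EpiLC markers averaged 17.3 to 32.8 in mESC and 52.8 (XX), 199 (XY) and 85.5 (Tet3-/-) in EpiLC. Of these 5, Otx2 went the other way in LF2 cells, with means of 24 in XX mESC and 11.6 in XX EpiLC and of 21 and 18.8 in Tet3-/- cells, against 1.68 and 38.7 in XY. Of the general pluripotency factors, Pou5f1 averaged 311 to 427 in mESC and 224 to 246 in EpiLC, and Sox2 89.9 and 16.6 in XX, 91.9 and 1.99 in XY and 105 and 7.68 in Tet3-/- cells. Fibroblast and primitive endoderm markers summed to at most 6.93 and 6.32 in any library. The trophoblast list averaged 163 in XX, 202 in Tet3-/- and 26.5 in XY EpiLC, nearly all of it Krt8, with Cdx2 at most 1.03 there. In mESC the list averaged 32 in XX, 22.5 in XY and 23.8 in Tet3-/- cells. Cdx2 was 2.89 to 7.99 in XY mESC and at most 0.591 in XX and 0.798 in Tet3-/- mESC. Tfap2c averaged 15.7, 2.28 and 14.6 in XX, XY and Tet3-/- mESC. The Tet3 gene remained detected, at 0.555 to 0.825 in Tet3-/- and 0.696 to 1.25 in XX mESC, and at 1.02 to 1.28 and 1.39 to 1.91 in the EpiLC. The sum over its transcripts does not resolve a deleted part. The library XX mESC 2 stood apart: its median member lay 0.53 above the mean of all libraries (log2), against 0.01 and -0.15 in XX mESC 1 and 3, and nuclear coding genes held 41.5% of its TPM against 21.4% and 27.5%. The Tet3-/- mESC libraries also spread, with member medians of 0.09, 0.33, 0.42 and -0.15. The nuclear coding share of TPM was highest in XY EpiLC, at 44.6% to 46.7%, against 30.1% to 43.2% in XY mESC. It was 28.9% to 30.9% in XX EpiLC and 28.2% to 37.4% in Tet3-/- EpiLC. The part of this share in the differences below was not tested.

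**Figure D1:**
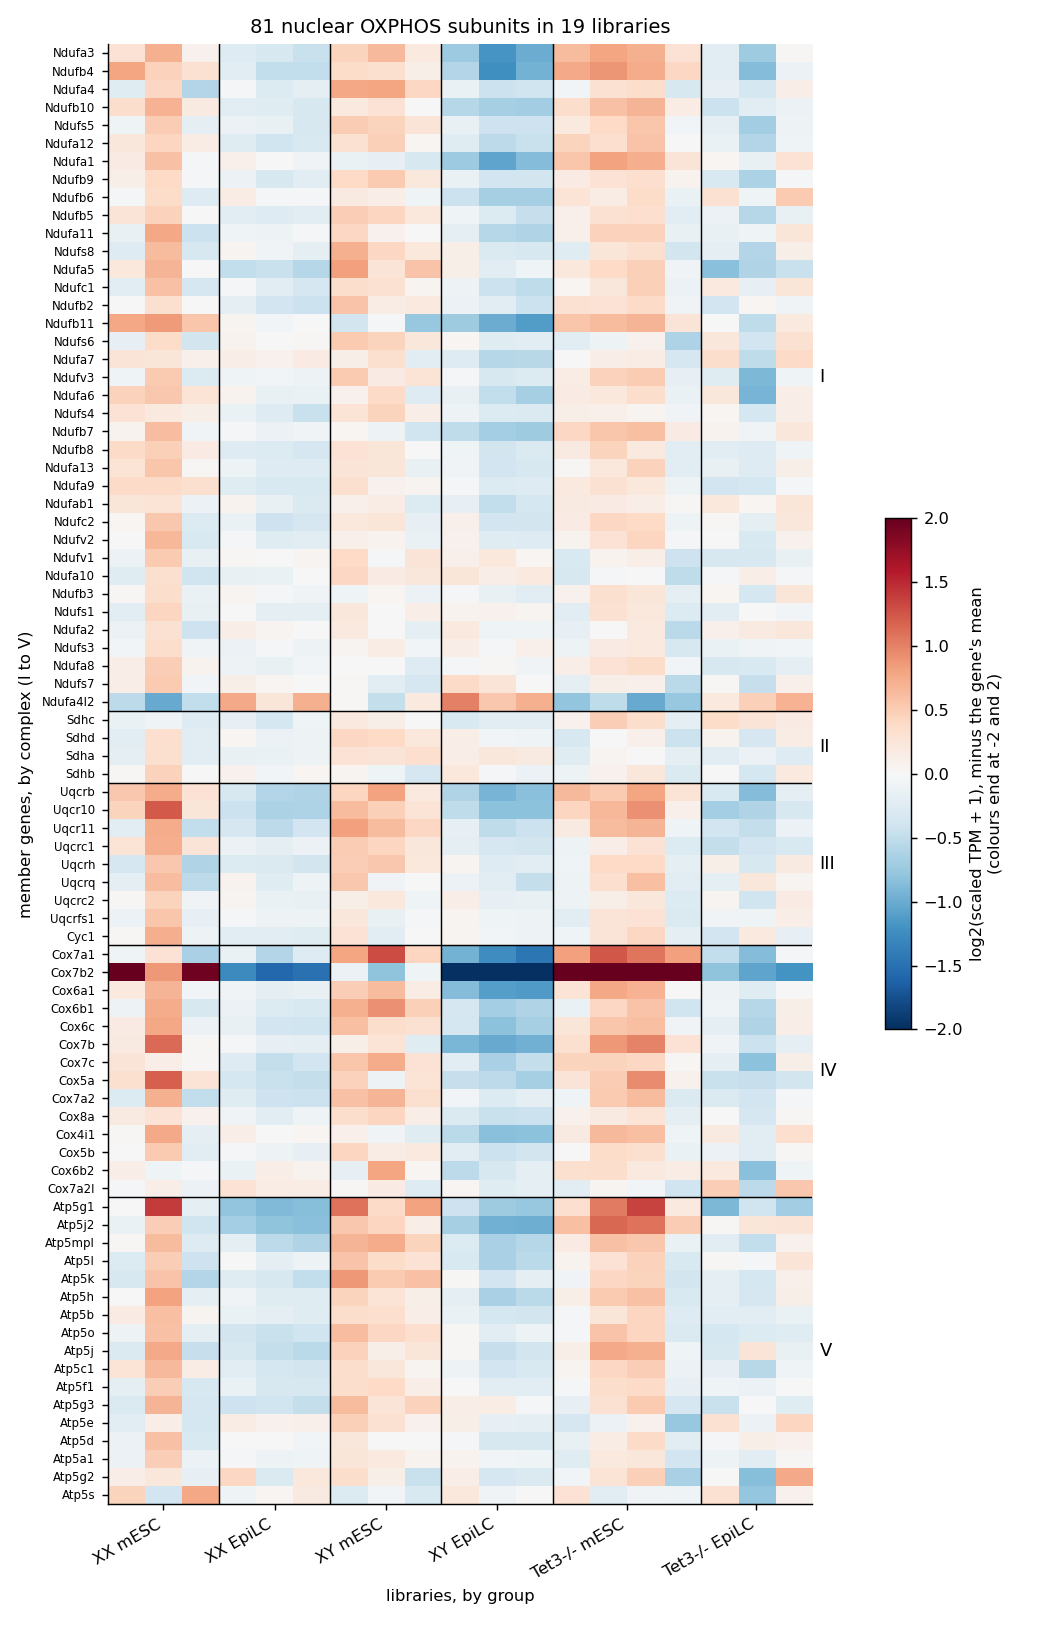
Each row is 1 of 81 tested members (1 is not shown), grouped by complex and ordered by the XY difference, and each column is 1 of the 19 libraries. Colour is log2(scaled TPM + 1) minus the gene's mean over all libraries, with colours ending at 2 in both directions, and XX mESC 2 is the library with a median of 0.53.

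Promoter sequences of 6 members on which the results turn show how different their upstream regions are. Each is 120 bases lying upstream of the start in both RefSeq and GENCODE, taken from RefSeq (GRCm38.p6) and written 5′ to 3′ on the gene's strand. Capitals mark matches, on either strand, to the NRF1 palindrome (named only), ETS/GABPA (CCGGAAG), YY1 (AAGATGG), ERRalpha (AAGGTCA), the CCAAT box (CCAAT) or the TATA box (TATAAA). Atp5g1 (chr11:96075671-96075790, minus strand) and Atp5g3 (chr2:73911327-73911446, minus strand) encode the same mature subunit c of ATP synthase. Cox7a1 (chr7:30184024-30184143, plus strand) and Cox7b2 (chr5:71548206-71548325, minus strand) encode tissue-restricted isoforms. Cox6a1 (chr5:115348982-115349101, minus strand) and Ndufb4 (chr16:37654454-37654573, minus strand) encode broadly expressed accessory subunits.
Atp5g1: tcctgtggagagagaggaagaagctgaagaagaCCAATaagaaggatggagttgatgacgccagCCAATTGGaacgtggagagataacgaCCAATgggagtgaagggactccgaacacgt
Atp5g3: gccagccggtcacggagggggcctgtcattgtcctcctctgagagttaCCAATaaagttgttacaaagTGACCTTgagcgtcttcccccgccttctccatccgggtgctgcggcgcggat
Cox7a1: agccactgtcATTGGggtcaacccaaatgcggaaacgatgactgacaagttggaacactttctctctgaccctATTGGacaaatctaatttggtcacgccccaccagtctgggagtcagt
Cox7b2: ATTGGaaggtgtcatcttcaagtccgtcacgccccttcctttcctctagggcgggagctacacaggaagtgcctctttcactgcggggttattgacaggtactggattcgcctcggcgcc
Cox6a1: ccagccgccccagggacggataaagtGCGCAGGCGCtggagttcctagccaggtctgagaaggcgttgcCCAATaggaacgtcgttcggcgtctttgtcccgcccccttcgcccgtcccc
Ndufb4: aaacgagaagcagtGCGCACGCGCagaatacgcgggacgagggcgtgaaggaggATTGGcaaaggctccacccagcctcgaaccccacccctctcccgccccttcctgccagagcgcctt

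The Cox6a1 and Ndufb4 windows each hold 1 NRF1 match and 1 CCAAT match, with 12 and 11 CpG dinucleotides. The Cox7a1 and Cox7b2 windows hold CCAAT matches alone, with 3 and 7 CpGs. The Atp5g1 window holds 4 CCAAT matches, a pair of which overlap on opposite strands, while the Atp5g3 window holds 1 CCAAT and 1 ERRalpha match. Windows of other members, not printed, varied as much. Ndufb11 held 3 CCAAT matches and 2 CpGs, and Uqcr10 1 CCAAT match and 3 CpGs. Cox7b, Cox7a2 and Ndufa1 held no match, with 3, 9 and 13 CpGs. So the printed windows do not set restricted isoforms apart from broadly expressed members. Over the whole RefSeq promoter entry (250 bases before to 50 after the start), 67 of 86 member symbols were matched, with 72 entries. NRF1 letters stood in 25% of the member entries and in 4.6% of all 32851 entries, ETS/GABPA letters in 22.2% and 8.86%, YY1 in 13.9% and 6.34%, and ERRalpha in 11.1% and 4.72%. The CCAAT letters stood in 41.7% and 37.4%, and the TATA letters in 11.1% and 13.6%. The NRF1 letters contain CpGs, and member entries held a median of 19 CpGs against 7 over all entries. NRF1 and GABPA are known activators of respiratory chain genes, but a match describes only these letters.

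The members were abundant transcripts. Their median level was 89.5 scaled TPM (mean of the 6 group means), with 202 for complex IV, 154 for complex V, 72.1 for complex III, 64.1 for complex I and 45.2 for complex II. Atp5b, the catalytic beta subunit of ATP synthase, was the highest at 525, with libraries from 400 to 785. It was followed by the small complex IV subunits Cox7c (432), Cox4i1 (390) and Cox6c (328). The lowest tested members were Cox7a1 (15.6), Cox7b2 (10.2), Atp5s (7.01) and Ndufa4l2 (1.27). All members together held 2.74% to 3.66% of nuclear coding TPM in the mESC libraries and 2.42% to 2.69% in the EpiLC libraries, so these ranges did not overlap. In bulk RNA, fewer cells with a transcript and less of it per cell cannot be told apart.

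The summed level of each complex was lower on average in EpiLC than in mESC for complexes I, III, IV and V in each genotype. Complex III summed to 1382 ± 450 in XX mESC and 847 ± 51.9 in XX EpiLC, to 1464 ± 173 and 825 ± 92.1 in XY, and to 1389 ± 270 and 912 ± 112 in Tet3-/- cells (SD, n = 3, and n = 4 for Tet3-/- mESC). The lowest mESC library (1047) lay above the highest EpiLC library (1026). Complex IV summed to 3283 ± 869 and 2436 ± 133 in XX, to 3519 ± 394 and 1902 ± 191 in XY, and to 3472 ± 673 and 2520 ± 480 in Tet3-/- cells. The XY libraries were separated, at 3068 to 3796 against 1753 to 2117, while Tet3-/- mESC reached down to 2660 and Tet3-/- EpiLC up to 2929. Complex II differed least, with 182 ± 35.6 and 170 ± 7.03 in XX, 206 ± 12.6 and 182 ± 9.06 in XY, and 175 ± 27 and 177 ± 17.3 in Tet3-/- cells. These sums were not tested.

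**Figure D2:**
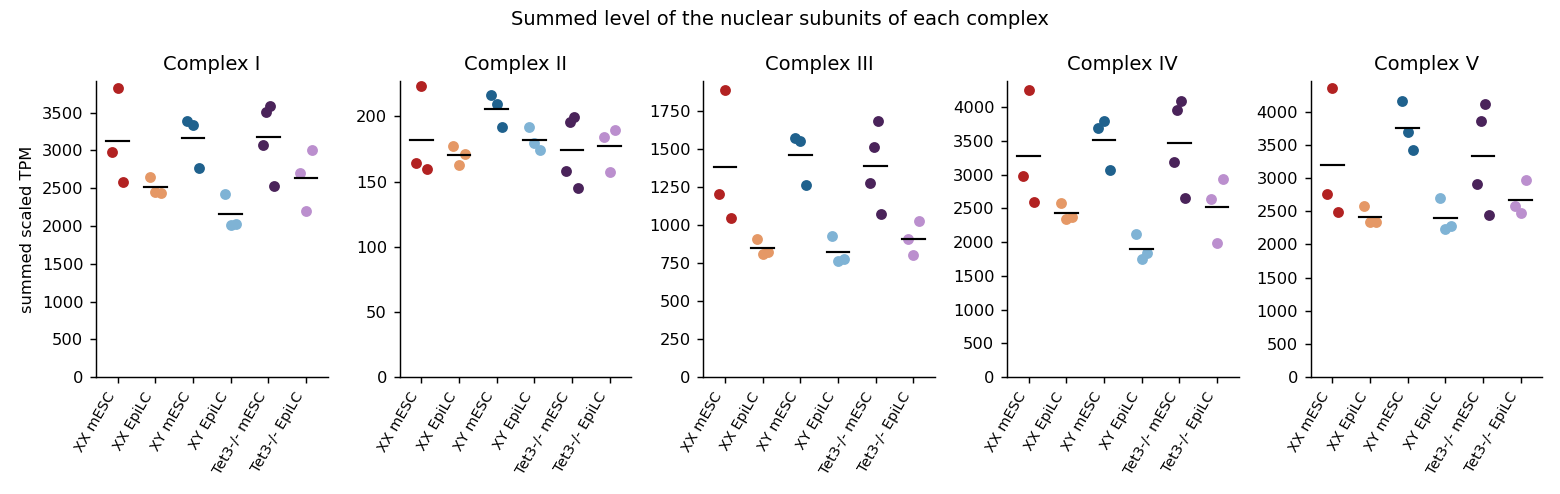
Summed scaled TPM of the members of each complex, with 1 point per library, a bar at the group mean and axes from 0. Complex III has no overlap between mESC (1047 and above) and EpiLC (1026 and below), while complex II overlaps in XX and Tet3-/- cells and its XY ranges meet at 192.2.

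EpiLC were then set against mESC of the same genotype, gene by gene. In XY cells 47 of 82 members were called lower (57.3%, against 26.4% of all genes tested) and 1 higher (24.5%, with 50.9% of all genes called in either direction), with a median log2 difference of -0.55 against -0.042 over all genes. In Tet3-/- cells 29 were called lower (35.4%, against 27.9%) and 2 higher (23.7%, 51.6% in either direction), with a median of -0.26 against -0.027. With a replicate block, 18 Tet3-/- members were called in either direction in place of 31. Calls over all 14972 genes were 7216 in that fit, in place of 7732. Tet3-/- mESC 2 has no EpiLC library of its number, so the block also set that library aside. In XX cells 22 were called lower (26.8%, against 27.0%) and 1 higher (23.0%), with a median of -0.27 against -0.053. The share called lower in XX was thus that of the background, although 74 of the 82 values were negative. Without XX mESC 2, the XX transition had 18 called members and a median of -0.055, against -0.022 over all genes. The XX and Tet3-/- transitions share no library, and 18 members were called lower in all 3 genotypes, 18 in XY alone and 32 in none. The shares of all genes in these sets were not counted, so the counts cannot be read as particular to the members.

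These directions depended on how libraries were scaled. On TPM without scaling the median over all genes was 0.14 for XX, 0.54 for XY and -0.13 for Tet3-/- cells, and the members lay 0.16, 0.36 and 0.27 below it. The XY member median was then 0.18, with 9 members called higher and 5 lower, and in XX 1 was higher and 4 lower. With TPM rescaled over nuclear coding genes, the members lay 0.17, 0.42 and 0.24 below the median of all genes, with 5 higher and 16 lower in XX and 8 higher and 26 lower in XY. Quantile normalization gave 8 higher and 23 lower in XY, and the members lay 0.13, 0.15 and 0.33 below the median of all genes. Calls over all 14972 genes in XX and XY were 4689 and 7561 unscaled, 6472 and 7322 rescaled, and 7711 and 7800 after quantile normalization. So the members were lower relative to the median gene under each of these scalings, but the XY median itself changed sign on unscaled TPM, and after quantile normalization the offset was larger in Tet3-/- than in XY cells.

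**Figure D3:**
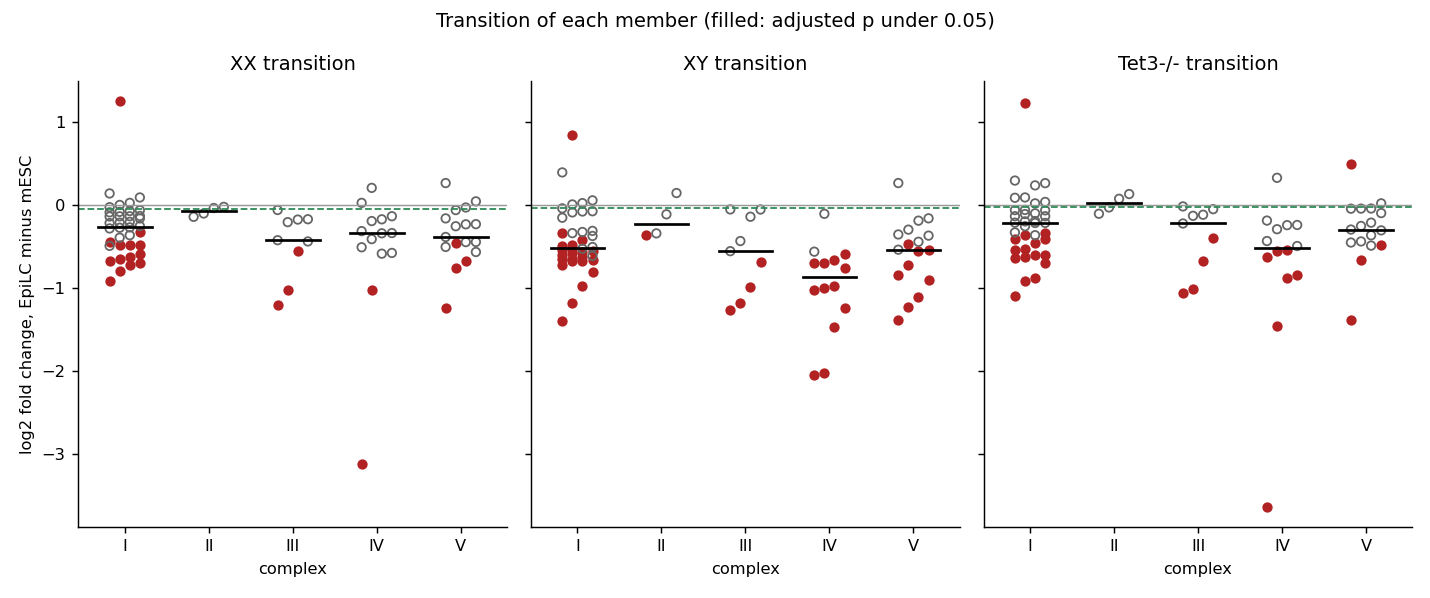
Log2 difference between EpiLC and mESC for each tested member, by complex and genotype, with filled points for called members, bars at complex medians and a dashed line at the median of all tested genes. With the median-of-ratios scaling, 12 of 14 complex IV members were called lower in XY (85.7%, against 26.4% of all genes), and the complex median was -0.87.

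Complex I takes electrons from NADH. Of its 38 members 13 were called lower in XX, 21 in XY and 15 in Tet3-/- cells, with medians of -0.26, -0.52 and -0.22. Single libraries moved these values: 12 were called in XY without XY mESC 1 or XY EpiLC 2, 9 in Tet3-/- cells without Tet3-/- EpiLC 3, and the Tet3-/- median ran from -0.34 (without mESC 4 or EpiLC 4) to -0.14 (without mESC 3). The XX median was -0.055 without XX mESC 2, and the XX calls ran from 9 to 17. Calls over all 14972 genes changed in these fits too. They were 6653 without XY mESC 1 and 6522 without XY EpiLC 2, against 7627, and 7906 without Tet3-/- EpiLC 3, against 7732. Over all fits without 1 library they ran from 6487 to 7326 in XX (7480 with all), 6483 to 7338 in XY and 6960 to 7906 in Tet3-/- cells. The same fits serve for complexes II to V and the gene lists below. The 7 nuclear core subunits, which bind the flavin, the iron-sulphur clusters and the quinone, had none called by limma in any transition, with 0, 1 and 0 at an unadjusted p under 0.05. Their values ran from -0.29 to -0.065 in XX, from -0.62 to 0.39 in XY and from -0.26 to 0.017 in Tet3-/- cells. Of all genes 27.0%, 26.4% and 27.9% were called lower, so an absence of calls among 7 genes does not set core apart from accessory subunits. The accessory subunits called included Ndufa5 in the quinone-binding module (-0.80, -0.61 and -0.89 in XX, XY and Tet3-/-) and Ndufa12 in the NADH-binding module (-0.59, -0.68 and -0.61). Over these modules, 2, 4 and 2 of 10 NADH-module members and 1, 1 and 1 of 5 quinone-module members were called lower.

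Ndufb4, an accessory subunit of the membrane arm, was 59.4, 47.3 and 42.2 scaled TPM in XX mESC and 28.9, 24 and 24 in XX EpiLC. In XY it was 44.3, 42.5 and 36.8 in mESC and 22.3, 13.9 and 17.2 in EpiLC. In Tet3-/- cells it was 58.2, 63.7, 57.4 and 45.8 in mESC and 29.2, 18.2 and 31.2 in EpiLC. No EpiLC library reached any mESC library, and the log2 differences were -0.92, -1.19 and -1.10 (SE 0.201, 0.201 and 0.188). limma's adjusted p-values were 0.00116, 0.000115 and 0.000113. A pseudogene named after it, Ndufb4c, reached 129 in a library, so the division of reads between them is uncertain. Ndufa3, also in the membrane arm, was 117, 135 and 98.4 in XY mESC and 51.4, 37.2 and 42.6 in XY EpiLC, a difference of -1.40 (SE 0.201, limma adjusted p = 2.29e-05).

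The member that went the other way was Ndufa4l2, a hypoxia-inducible paralogue of Ndufa4. It was called higher in EpiLC in each genotype, by 1.24 in XX, 0.84 in XY and 1.22 in Tet3-/- cells (limma adjusted p = 0.000113, 0.00311 and 6.3e-05). Its level stayed low, with EpiLC group means of 2.01, 2.41 and 1.78 and mESC means of 0.273, 0.924 and 0.191. It made up 0.746% to 1.15% of the sum with Ndufa4 in the EpiLC group means.

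Complex II oxidises succinate. Sdha, Sdhb and Sdhd were not called in any transition, and Sdhc, a membrane anchor, was called lower in XY alone, by 0.36 on the log2 scale (limma adjusted p = 0.041). That call was lost in 5 of the 6 fits without 1 XY library (adjusted p = 0.0755 to 0.126), all but the fit without XY mESC 3. The complex medians were -0.072, -0.23 and 0.020 in XX, XY and Tet3-/- cells, and over the fits without 1 library they ran from -0.16 (without XX mESC 3) to 0.034 (without XX mESC 2) in XX and from -0.086 (without Tet3-/- mESC 4) to 0.098 (without Tet3-/- EpiLC 3) in Tet3-/- cells. limma called 0 of 4 in XX and in Tet3-/- cells, and 0 were under an unadjusted p of 0.05.

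Complex III passes electrons from ubiquinol to cytochrome c. All 9 members were negative in each transition, and 3, 4 and 4 were called lower. These were 33.3%, 44.4% and 44.4%, against 27.0%, 26.4% and 27.9% of all genes, and 1 of 9 genes moves the share by several percentage points. In Tet3-/- cells 2 were called without mESC 2, mESC 3 or EpiLC 1, in XX 5 without mESC 3, and the XX median of -0.43 became -0.058 without mESC 2. Uqcrb, a subunit near the quinone site, was 326, 377 and 275 in XX mESC and 180, 149 and 147 in XX EpiLC, and 302, 392 and 258 in XY mESC and 147, 117 and 125 in XY EpiLC. Its groups did not overlap in any genotype, with differences of -1.03, -1.27 and -1.02 (limma adjusted p = 0.000441, 5.83e-05 and 0.000235). Uqcr10, a small subunit, differed by -1.20, -1.19 and -1.06 (adjusted p = 0.000402, 0.00044 and 0.000603). Cyc1, the catalytic cytochrome c1, was not called, at -0.44, -0.056 and -0.23.

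Complex IV passes electrons to oxygen. Of 14 tested members 2 were called lower in XX, 12 in XY and 7 in Tet3-/- cells, with medians of -0.34, -0.87 and -0.52. These shares were 14.3%, 85.7% and 50%, against 27.0%, 26.4% and 27.9% of all genes, so the XX share lay below that of all genes. The XY count stayed between 10 and 12 in every fit without 1 XY library. In XX 5 were called without XX mESC 3, with a median of -0.56, and the median was -0.118 without XX mESC 2, while in Tet3-/- cells 4 were called without Tet3-/- EpiLC 3. Cox6a1, a regulatory subunit on chromosome 5 (115345642 to 115348981), was 283, 310 and 222 in XY mESC and 109, 92.7 and 90.2 in XY EpiLC. In XX it was 229, 321 and 192 in mESC and 191, 174 and 180 in EpiLC. The XY groups were far apart (-1.47, SE 0.208, limma adjusted p = 1.91e-05), and the XX groups nearly touched, with a difference that was not called (-0.41, adjusted p = 0.112). Cox5a, a subunit on the matrix side, was lower in all 3 genotypes, by -1.02, -0.76 and -0.88 (adjusted p = 0.00146, 0.0111 and 0.00262), with no call in XX on unscaled TPM (-0.76, 0.123).

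Several complex IV subunits have a tissue-restricted isoform. Cox7b2 (chromosome 5, 71442824 to 71548205), a relative of the X-linked Cox7b known mainly from testis, was 26.3, 9.6 and 21.4 in XX mESC and 1.42, 0.957 and 1.07 in XX EpiLC. In Tet3-/- cells it was 46.5, 29.4, 29.3 and 35.6 in mESC and 2.34, 1.8 and 1.55 in EpiLC. In XY it was lower from the start, at 4.37, 2.35 and 4.52 in mESC and 0.0995, 0.0575 and 0.271 in EpiLC. The groups did not overlap in any genotype, and the differences were -3.12, -3.63 and -2.02 in XX, Tet3-/- and XY (SE 0.282, 0.264 and 0.282, limma adjusted p = 1.26e-07, 6.95e-09 and 1.57e-05). XX mESC 2, in which most members were high, had the lowest Cox7b2 of its group. As a share of the sum with Cox7b it was 7.55%, 11% and 1.91% in XX, Tet3-/- and XY mESC and 0.643%, 1.13% and 0.144% in EpiLC.

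Cox7a1 (chromosome 7, 30184144 to 30186078), the isoform of heart and skeletal muscle, was 24.4, 35.4 and 18.8 in XY mESC and 6.69, 5.24 and 4.39 in XY EpiLC. In Tet3-/- cells it was 25, 33.9, 30 and 25.1 in mESC and 9.47, 7.08 and 13.3 in EpiLC. In XX it was 12.9, 17 and 8.37 in mESC and 12.4, 8.81 and 11.4 in EpiLC, and these groups overlapped. The differences were -2.05 in XY (SE 0.262, limma adjusted p = 6.07e-06), -1.46 in Tet3-/- cells (SE 0.245, 9.9e-05) and -0.18 in XX (SE 0.262, 0.61). Its share of the sum with the broadly expressed Cox7a2 was 8.42% in XY mESC and 3.07% in XY EpiLC, 11.4% and 5.63% in Tet3-/- cells, and 6.13% and 6.75% in XX.

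The other restricted isoforms behaved unlike these. Cox6b2, a testis isoform, made up 20.4% to 28.2% of the sum with Cox6b1 in the mESC group means and 25.2% to 29.6% in EpiLC, and it was not called in any transition. Cox4i2, Cox6a2, Cox8b and Cox8c stayed at or near 0, with Cox6a2 at most 0.494% of the sum with Cox6a1.

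**Figure D4:**
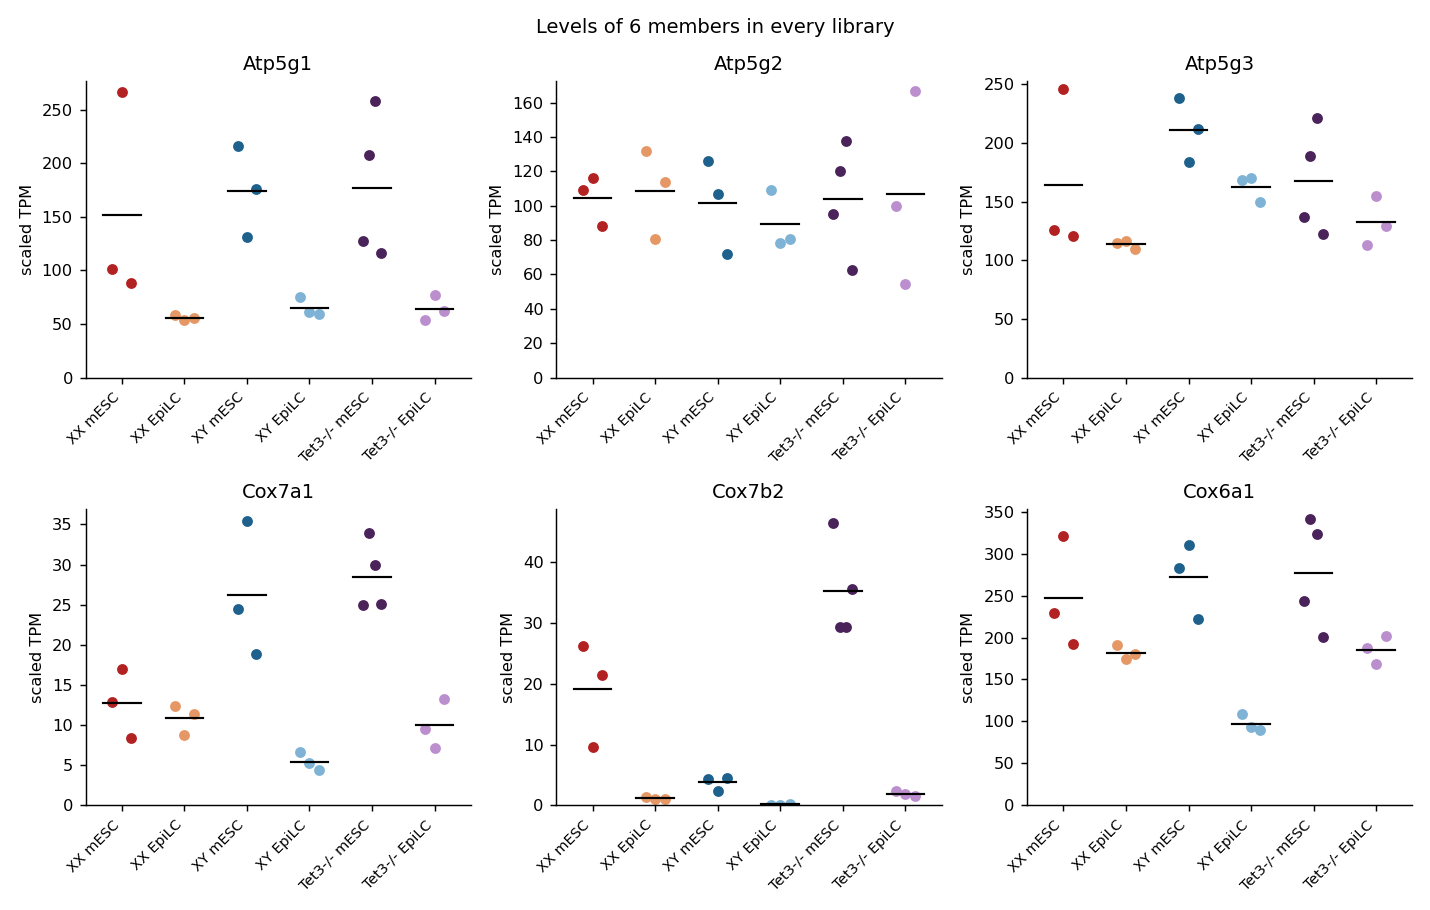
Scaled TPM of 6 members in every library, with points for libraries, a bar at each group mean and axes from 0. Cox7a1 is 8.37 to 17 in XX mESC and 8.81 to 12.4 in XX EpiLC, but 18.8 to 35.4 and 4.39 to 6.69 in XY.

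Complex V makes ATP. Of 17 tested members 4, 9 and 3 were called lower in XX, XY and Tet3-/- cells, or 23.5%, 52.9% and 17.6%, so that only the XY share lay above that of all genes (27.0%, 26.4% and 27.9%). It was 5 members in XY without XY mESC 1, XY EpiLC 2 or XY EpiLC 3, and 6 in Tet3-/- cells without Tet3-/- mESC 4. In XX 6 were called without XX mESC 3, and the median of -0.39 became -0.085 without XX mESC 2. Tet3-/- cells had 2 called without mESC 2, mESC 3 or EpiLC 3. Of the 5 members of the catalytic F1 sector, Atp5c1 (gamma) was called lower in each, by -0.68, -0.47 and -0.48, and Atp5b (beta) by -0.46 in XX and -0.56 in XY (limma adjusted p = 0.0389 and 0.0144). Atp5e (epsilon) was called higher in Tet3-/- cells (0.49, adjusted p = 0.0372), though its groups overlapped.

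The ring of subunit c is encoded by 3 genes, Atp5g1, Atp5g2 and Atp5g3, whose mature protein is the same. Atp5g1 (chromosome 11, 96068852 to 96075670) was 101, 266 and 88.2 in XX mESC, 216, 131 and 176 in XY mESC and 127, 208, 258 and 116 in Tet3-/- mESC. In EpiLC it was 58.2, 53.9 and 55.4 in XX, 75.1, 61.2 and 59.5 in XY and 53.7, 76.6 and 61.8 in Tet3-/- cells. Every mESC library lay above every EpiLC library, and the differences were -1.24, -1.39 and -1.39 in XX, XY and Tet3-/- (SE 0.353, 0.353 and 0.33, limma adjusted p = 0.00771, 0.00368 and 0.00206). Without XX mESC 2, whose 266 is the highest value, the XX difference was -0.75 and remained called. On unscaled TPM the XX and XY differences were -0.98 and -0.66 and were not called (adjusted p = 0.125 and 0.243), and a fit of the XX groups alone gave 0.0519. Atp5g2 (0.041, -0.16 and -0.047) and Atp5g3 (-0.45, -0.37 and -0.31) were not called. The share of Atp5g1 in the sum of the 3 genes, which does not depend on the scaling, was 34% ± 7.19, 35.5% ± 3.88 and 38.9% ± 2.79 in XX, XY and Tet3-/- mESC and 20.1% ± 1.23, 20.5% ± 0.765 and 21.4% ± 4.86 in EpiLC (SD, n = 3, and n = 4 for Tet3-/- mESC). The lowest mESC library had 29.7% and the highest EpiLC library 26.8%.

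The XX and XY lines were then compared within each state. In mESC 2 members were called higher in XX (18.2% of all genes) and 4 lower (12.6%, 30.8% in either direction), and the member median was -0.082. Cox7b2 was higher in XX by 2.01 (limma adjusted p = 5.11e-05) and Ndufb11 by 1.11 (0.00036), while Cox7a1 was lower, at -0.99 (0.00865, and 0.0886 in a fit of these groups alone). Ndufa4, Atp5k and Ndufa4l2 were the other 3 called lower. The count rested on XX mESC 2: without it 3 were higher and 23 lower. Calls over all 14972 genes also rose in that fit, from 4611 to 5872. Without XX mESC 3, 4 were higher and 0 lower, so the direction of the whole set in mESC turned on single libraries, and without XX mESC 1 or XY mESC 1 3 were called.

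In EpiLC 12 members were called higher in XX (14.6%, against 17.9% of all genes) and 0 lower (15.1%), a share of higher calls below the background. Complex I held 7 of the 12 (18.4% of its 38 members), with a median of 0.095, against 0.007 over all genes. Complex IV held the other 5 (35.7% of its 14 members), the X-linked Cox7b among them, with a median of 0.32. Cox6a1 differed by 0.90 (limma adjusted p = 0.00324) and Cox7a1 by 0.89 (0.0158), and no XX and XY libraries overlapped for any of the 12. The share of all called genes without overlap was not counted, so this is not particular to the members. The call of Cox7a1 was lost in 3 of 6 fits that left out 1 library, and that of Cox7b in 2. The count was 3 without XX EpiLC 1, 4 without XY EpiLC 2 and 5 without XY EpiLC 3. Calls over all 14972 genes were 3855, 3824 and 3755 in these fits, against 4948. The count also turned with the scaling, with 1 higher and 37 lower on unscaled TPM, where the median of all genes was -0.59, 11 and 4 on TPM rescaled over nuclear coding genes, and 11 and 12 after quantile normalization. Over all genes 7074, 4125 and 5722 were called in either direction under these scalings.

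All 3 X-linked members were among the 12. Ndufa1 (X, 37187588 to 37191163), a small membrane-arm subunit of complex I, was 173, 162 and 152 in XX EpiLC and 96.5, 76.7 and 87.8 in XY EpiLC (0.90, limma adjusted p = 0.000764). Ndufb11 (X, 20615326 to 20617619), of the same arm, was 69.2, 64.3 and 66.1 against 40.5, 33 and 30.4 (0.93, 0.00141). Cox7b (X, 106015700 to 106022450), of complex IV, was 188, 172 and 169 against 102, 96.1 and 98.7 (0.83, 0.0175). On unscaled TPM these 3, Cox6a1 and Cox7a1 differed by 0.077 to 0.23 and were not called. Over the 604 X-linked genes tested, 25.5% were called higher in XX EpiLC with a median of 0.036, and 51.2% in XX mESC with a median of 0.55. In mESC Ndufb11 was 115, 121 and 98.3 in XX and 51.4, 65.6 and 38.9 in XY and was called, whereas Ndufa1 (0.44, adjusted p = 0.0626) and Cox7b (0.40, 0.247) were not.

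Whether the transition itself differed between XX and XY cells was tested with an interaction contrast. A difference was called for 3 of 82 members, all higher (11.0% of all genes were called higher and 12.4% lower), and 11 members were under an unadjusted p of 0.05. They were Cox7a1 (1.87, SE 0.37, limma adjusted p = 0.00154), Cox6a1 (1.05, SE 0.294, 0.0163) and Ndufa4 (0.94, SE 0.328, 0.0478). Ndufa4 was 438, 443 and 340 in XY mESC and 234, 189 and 195 in XY EpiLC, against 217, 343 and 170 and then 251, 212 and 223 in XX, where the groups overlapped. The call of Ndufa4 was lost in 10 of the 12 fits that left out 1 library, and that of Cox6a1 on unscaled TPM (0.59, adjusted p = 0.33). Without XX mESC 2, 18 members were called, of which 17 were higher, while calls over all 14972 genes rose from 3512 to 4508. Under other scalings 7 were higher and 3 lower (rescaled over nuclear coding genes) or 3 higher and 4 lower (quantile). Calls over all genes were 2635 and 3913 under these scalings.

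Tet3-/- cells were compared with XX cells of the same line, and both comparisons share the XX libraries with the XX results above. In mESC limma called 2 members higher (1.58% of all genes) and 0 lower (1.69%, 3.27% in either direction), with 7 under an unadjusted p of 0.05 and a member median of 0.033. In EpiLC 1 was called higher (2.20%) and 0 lower (3.23%, 5.43% in either direction), with 3 under an unadjusted p of 0.05 and a median of 0.042. The difference between the Tet3-/- and XX transitions was called for 0 members (0.628% of all genes, 0.234% higher and 0.394% lower), with 1, Cox7a1, under an unadjusted p of 0.05 (-1.28, limma adjusted p = 0.141).

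Cox7a1 was higher in Tet3-/- than in XX mESC by 1.14 (SE 0.245, limma adjusted p = 0.0162), with every Tet3-/- library (25 to 33.9) above every XX library (8.37 to 17). In EpiLC it differed by -0.14 and was not called. The mESC call was lost without XX mESC 1 (adjusted p = 0.0628) or XX mESC 3 (0.112), and in a fit of the compared groups alone (0.143). Atp5j2 (chromosome 5, 145183698 to 145192062), a subunit of the membrane sector of ATP synthase, was 206, 302, 289 and 193 in Tet3-/- mESC and 123, 190 and 102 in XX mESC. In EpiLC it was 138, 160 and 162 in Tet3-/- and 83.8, 76.6 and 75.4 in XX. The groups were separate in both states, by 0.86 (SE 0.198, adjusted p = 0.0246) and 0.96 (SE 0.211, 0.014). The mESC call was lost without XX mESC 1, XX mESC 3, Tet3-/- mESC 2 or Tet3-/- mESC 3 (0.0559 to 0.156), and the EpiLC call without XX EpiLC 2 (0.0613) or XX EpiLC 3 (0.0637). On unscaled TPM Atp5j2 was called in neither state (0.0971 and 0.301), and a fit of the mESC groups alone or without the filter also gave no call in mESC (0.27 and 0.0613). The number of members called in mESC ran from 0 without XX mESC 3 to 6 without XX mESC 2. Calls over all 14972 genes were 222 and 1508 in these fits.

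The genes beside Atp5j2 also differed between Tet3-/- and XX cells, which was looked at after the values of Atp5j2 had been seen. All 13 tested coding genes whose start lies within 500 kb were positive in both states, with medians of 0.52 in mESC and 0.57 in EpiLC, and 5 and 7 of them were called higher. Arpc1a, for an actin-nucleating complex, differed by 0.83 and 0.70 (limma adjusted p = 0.00398 and 0.0124), and Smurf1, a ubiquitin ligase, by 0.52 and 0.62 (0.00843 and 0.00247). Over the 67 members with at least 5 such neighbours, the neighbour medians ran from -0.421 to 0.522 in mESC and from -0.431 to 0.567 in EpiLC, with medians of -0.018 and -0.014. Atp5j2 had the highest, but 3 members lay above 0.3 in both states. Around Cox7a1, 36 neighbours had a median of -0.002 in mESC and 0 were called higher. The part of the neighbourhood in the values of these members was not tested.

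**Figure D5:**
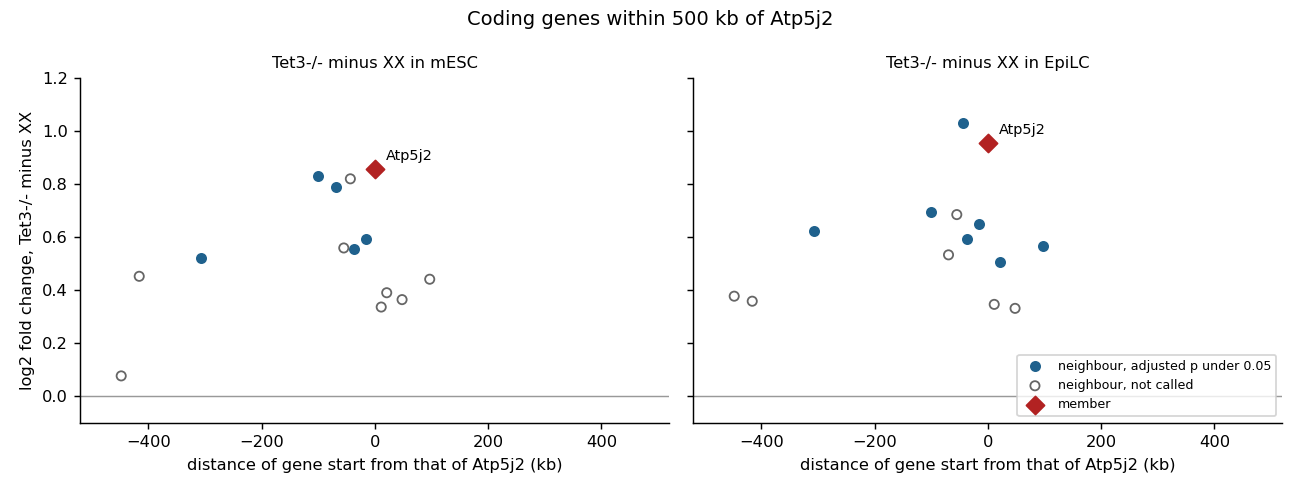
Log2 difference between Tet3-/- and XX cells for tested coding genes with a start within 500 kb of Atp5j2, in mESC (left) and EpiLC (right), against distance in kb, with Atp5j2 as a diamond and filled points for called neighbours. All 13 neighbours lie above 0 in both states.

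Other genes of the pathway were counted in the same fit, in which 27.0%, 26.4% and 27.9% of all genes were called lower in XX, XY and Tet3-/- transitions and 23.0%, 24.5% and 23.7% higher. The 13 mitochondrially encoded subunits had 8, 3 and 3 called lower in XX, XY and Tet3-/- transitions and 0 higher, with medians of -0.60, -0.49 and -0.57. The XX count of 8 (61.5%) fell to between 1 (without XX EpiLC 3) and 5 in the fits without 1 XX library, and the others (23.1% each) were 1 without XY mESC 1, or without Tet3-/- mESC 1, mESC 2 or EpiLC 1, and 5 without Tet3-/- EpiLC 4. Among them mt-Nd4l differed by -1.54 in XX and -1.31 in XY (limma adjusted p = 0.00814 and 0.0205). Of 45 tested assembly factors 16, 14 and 14 were lower (35.6%, 31.1% and 31.1%, near the share of all genes) and 5, 4 and 6 higher. Cox19, for copper delivery to complex IV, differed by -0.98, -1.11 and -0.995, and Tmem70, for ATP synthase assembly, by -1.97 in XX and -1.17 in Tet3-/- cells (-0.07 in XY, not called).

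Of 11 electron carriers and coupling proteins 3, 5 and 4 were lower (27.3%, 45.5% and 36.4%) and 0, 0 and 1 higher. Etfb, of the electron transfer flavoprotein, differed by -1.45, -0.93 and -1.52. Of 14 genes of the tricarboxylic acid cycle 7, 4 and 5 were lower (50%, 28.6% and 35.7%) and 0, 2 and 1 higher, led by Idh2, the mitochondrial isocitrate dehydrogenase, at -1.64, -1.58 and -2.14. Of 14 tested regulators 5, 4 and 5 were lower (35.7%, 28.6% and 35.7%) and 1, 3 and 3 higher. In lists this small, 1 gene moves the share by several percentage points. Esrrb, a naive pluripotency factor, differed by -3.11, -5.71 and -4.59, and Gabpa by -1.29, -0.66 and -1.14. Nrf1 was not called, at -0.19, -0.22 and -0.10.

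Members with and without promoter letters were counted beside each other. Of 17 tested members with NRF1 letters 5, 11 and 7 were called lower in XX, XY and Tet3-/- transitions, against 16, 30 and 19 of 49 without. Of 16 with ETS/GABPA letters 0, 9 and 2 were called lower, against 21, 32 and 24 of 50 without. YY1 letters went the other way, with 5, 8 and 5 of 10 against 16, 33 and 21 of 56. For ERRalpha the counts were 2, 5 and 3 of 8 against 19, 36 and 23 of 58. For CCAAT they were 10, 17 and 12 of 29 against 11, 24 and 14 of 37, and for TATA 2, 5 and 2 of 6 against 19, 36 and 24 of 60. Of all genes tested 27.0%, 26.4% and 27.9% were called lower. The differences between these counts were not tested.

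Most members are short transcripts. Their median length, weighted by TPM, was 699 bases (367 to 2557), against 2389 over nuclear coding genes, and 61 of 82 were under 1000. Over all 1153 coding genes under 1000 bases the median XY transition was -0.36, with 38.3% called lower. The 61 short members had a median of -0.62 with 68.9% called lower, and the 21 longer members -0.16 with 23.8%. In XX the short coding genes had a median of -0.24 with 31.3% called lower and the short members -0.34 with 27.9%, a lower share of calls. In Tet3-/- cells the medians were -0.15 and -0.37, with 32.6% and 42.6% called lower. The part of transcript length in these differences was not tested.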

How the data were processed

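Total RNA of at least RIN 9 (200 ng) was depleted of ribosomal RNA and made into stranded TruSeq libraries, per the labels' protocols. The authors used FastQC 0.11.7, Trimmomatic 0.35 and Salmon 1.1.0 with GRCm38, per the submitters' processing notes, and deposited TPM for each of 140948 transcripts in 19 libraries. Transcripts were assigned to genes with GENCODE M21 (139357 with version, 495 without, 1096 unmatched, the last holding 0.0454% to 0.2149% of TPM) and summed.

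Gene values were scaled by the median of ratios over the 18385 genes above 0 in every library. Genes reaching 1 TPM in 3 or more libraries entered 1 model of 6 groups on log2(scaled TPM + 1) with limma 3.58.1 (empirical Bayes with a trend) in R 4.3.3, with p-values adjusted over all tested genes in each of 9 comparisons. Python 3.11.15, pandas 2.3.3, numpy 2.4.6 and matplotlib 3.10.9 were used for sums, sequences and plots. The code was tested on simulated data. TPM keeps no depth, so no counting interval is given, and an estimate can be shared between similar sequences. A member's transcripts annotated as coding held a median of 98.7% of its TPM, and under 50% for 6 members. Total RNA libraries also hold abundant non-coding RNA, which changes every other TPM, so scalings were varied.

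The members and gene lists were chosen with earlier results of these data known. Members named by rule for a change were the 5 highest and 5 lowest called members with a mean of at least 5 in a group, whose libraries did not overlap. X-linked members and isoform pairs were always given, and any other member could be named with its level. Some members outside this rule were also given with their changes, as examples of their complex or module. Among these are Ndufa5, Ndufa12, Sdhc, Cyc1, Atp5b, Atp5c1 and Atp5e. From each further list the 3 highest and 3 lowest called genes could be named. Promoter entries were matched by symbol; those of Atp5a1, Atp5f1, Atp5mpl, Atp5s, Cox4i1, Cox4i2, Cox6a2, Cox6c, Cox8c, Cyc1, Ndufa2, Ndufa4l2, Ndufb9, Ndufs1, Sdhc, Uqcrb, Uqcrc2 and Uqcrq were not used here. The values of 1 member are not reported here singly, though it is in the counts and medians. Alternatives were other scalings, pseudocounts, filters, transcript sets, sample sets, a replicate block and leaving out each library.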

Additional observations from a re-analysis of the deposited data

Results flagged for a closer look

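The transition from mESC to EpiLC differed between XX and XY cells, by a test of the difference itself, for 3 of 82 members, a smaller share than the 23.5% called among all genes tested. Cox7a1 differed by 1.874 (log2, XX minus XY), from a transition of -0.18 in XX and -2.05 in XY, and was called under each alternative tried. Cox6a1 differed by 1.052, from -0.41 in XX and -1.47 in XY, and lost its call on unscaled TPM alone (0.59, limma adjusted p = 0.33). Ndufa4 differed by 0.943, from -0.029 in XX and -0.97 in XY, with a limma adjusted p of 0.0478 that lay above 0.05 in 10 of the 12 fits without 1 library.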

How the results depend on the processing

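The limits are groups of 3 or 4 libraries, unknown depth, and a scaling that moves all genes together. On unscaled TPM the members called and their median were 5 and -0.018 in the XX transition and 14 and 0.175 in XY, where Ndufa1 (0.052) and Ndufb11 (0.166) reversed. For Tet3-/- minus XX, unscaled TPM called 1 in mESC and 0 in EpiLC. Of all 14972 genes it called 90 and 161 there, against 490 and 813 with the main scaling. For XX minus XY it gave a median of -0.366 in mESC, 38 calls and -0.660 in EpiLC, and 1 call and -0.272 for the difference of transitions, with -0.348 for that between Tet3-/- and XX. Calls over all 14972 genes on unscaled TPM were 4689 and 7561 in the XX and XY transitions and 7074 for XX minus XY in EpiLC. For the difference of the XX and XY transitions they were 2397. Rescaling over nuclear coding genes gave medians of -0.172 (XY transition), -0.128 (Tet3-/- minus XX, EpiLC), -0.049 (XX minus XY, EpiLC) and -0.205 (Tet3-/- minus XX transitions, 1 call), 20 calls for XX minus XY in mESC and 10 for the difference of the XX and XY transitions. Of all 14972 genes it called 96 for the Tet3-/- minus XX transitions, 3475 for XX minus XY in mESC and 2635 for the difference of the XX and XY transitions. Quantile normalization gave 31 calls and -0.128 (XY transition), 7 and 4 calls for Tet3-/- minus XX in mESC and EpiLC, 22 for XX minus XY in mESC, 23 and -0.089 in EpiLC, and 7 and -0.021 for the difference of transitions. Of all 14972 genes it called 7800 in the XY transition, and 545 and 988 for Tet3-/- minus XX. For XX minus XY it called 5056 and 5722 of all genes in mESC and EpiLC, and 3913 for the difference of transitions. With only the groups compared, 0 and 2 were called for Tet3-/- minus XX in mESC and EpiLC, and 2 and 28 for XX minus XY. Of all 14972 genes 6, 407, 2341 and 8644 were called in these fits, in the same order. Without a filter 1 was called for Tet3-/- minus XX in mESC, where 334 of all 46217 genes were called. The cause of these changes was not tested. Leaving out 1 library gave 18 to 34 calls and medians of -0.416 to -0.055 in XX, 32 to 52 and -0.634 to -0.490 in XY, and 21 to 34 and -0.399 to -0.158 in Tet3-/- transitions. Over all 14972 genes these fits called 6487 to 7326, 6483 to 7338 and 6960 to 7906, in the same order. Leaving out 1 library gave 0 to 6 and 0 to 1 calls for Tet3-/- minus XX in mESC and EpiLC (medians -0.103 to 0.188 and -0.049 to 0.152), and 3 to 26 and 3 to 12 for XX minus XY (-0.259 to 0.058 and 0.052 to 0.170). For the differences of transitions it gave 2 to 18 (XX minus XY, medians 0.060 to 0.337) and 0 to 1 (Tet3-/- minus XX, -0.155 to 0.187). The highest counts for Tet3-/- minus XX in mESC, XX minus XY in mESC and the XX minus XY difference came without XX mESC 2. Those fits called 1508, 5872 and 4508 of all 14972 genes. Same-numbered mESC and EpiLC libraries correlated at 0.040, -0.053 and 0.061 in XX, 0.209, -0.028 and 0.275 in XY and 0.223, 0.226 and -0.089 in Tet3-/- cells, so not every pair was above 0.1. The labels do not say what the numbers mark, the Tet3-/- libraries being numbered as mutants in both states, and the libraries were not treated as paired. With the replicate block 18 members were called in the Tet3-/- transition, 1 for Tet3-/- minus XX in mESC and 0 in EpiLC. Of all 14972 genes 7216, 139 and 283 were called in these fits, in the same order.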
